A study of Mus musculus with 4 samples.

Results

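The levels of 37 genes of the PPARA program and fatty acid oxidation, chosen by name, were compared in the livers of wild-type and Ezh2 K307R mice. They were 37 of the 17543 genes in the deposited tables, and each was found by its Entrez gene number. Ezh2 is the catalytic subunit of the Polycomb repressive complex PRC2, which methylates a core histone at repressed genes. The samples were 2 livers of C57BL/6 mice with wild-type Ezh2 and 2 livers of mice of the same strain carrying the lysine-to-arginine change K307R on both copies. Neither genotype had a labelled treatment, and the labels give no age, sex, diet, hour of collection or batch. They number the livers of a genotype 1 and 2 but name no animal, and a p value here speaks only for the spread between these samples, which may be technical.

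PPARA is a nuclear receptor that is activated by fatty acids and their derivatives, and it pairs with an RXR receptor on DNA to switch on genes of fatty acid use. In liver these genes carry fatty acids into mitochondria and peroxisomes, where beta-oxidation shortens the acyl chain step by step, and their activity is best known from fasting, when the liver turns the acetyl-CoA into ketone bodies and spares glucose. The carnitine enzymes move acyl groups across membranes, the perilipins coat the lipid droplets from which fatty acids are released, and Pdk4 closes the entry of pyruvate into oxidation.

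The libraries held between 18602928 and 20044832 expected counts, RSEM's estimates of the reads from each transcript. Ezh2 itself stood at 3.36 and 3.93 CPM (counts per 1000000 of the scaled library) in the wild type and 3.45 and 2.56 CPM in the mutants (log2 fold change -0.28, SE 0.33, adjusted p = 0.736), which does not check the labels, since the mutation changes a residue. The hepatocyte marker Alb lay between 98489 and 105307 CPM, and none of the 10 hepatocyte markers tested was called by edgeR, DESeq2 or limma-voom (0 at an unadjusted p under 0.05). The defining adipocyte marker Plin1 was not listed in any liver, and Adipoq was not listed in 3 livers and stood at 0.04 FPKM (fragments scaled to transcript length and library depth) in mutant replicate 2. Lep was not listed either, and the 7 of 9 adipocyte markers in the tables summed to between 20.5 and 29.7 CPM in the 4 livers. Of the 4 adipocyte markers tested edgeR called none and DESeq2 called 1 lower. Fabp4 among them was 3.93-fold lower in the mutants (edgeR adjusted p = 0.0755). The Kupffer cell markers summed to 286 and 333 CPM in the wild type and 502 and 348 CPM in the mutants. Of these 10 markers edgeR called 0 and DESeq2 1 higher, with 4 higher and 0 lower at an unadjusted p under 0.05. Of the 8 sinusoidal endothelial markers edgeR and DESeq2 called 0, with 2 higher and 1 lower at an unadjusted p under 0.05. Their sum was 81.0 and 111 CPM in the wild type against 117 and 129 CPM in the mutants. For the 9 stellate cell markers it was 157 and 272 CPM in the wild type against 327 and 253 CPM in the mutants, and here Dcn was called higher (2.56-fold, adjusted p = 0.0348) and Col1a1 lower (5.59-fold, adjusted p = 0.0365), with 5 higher and 2 lower at an unadjusted p under 0.05. The bile duct markers summed to 70.8 and 54.8 CPM against 32.5 and 60.4 CPM, most of it Spp1 (64.3 and 47.0 against 25.3 and 48.5 CPM). Of these 6 markers edgeR and DESeq2 called 0, with 1 higher and 0 lower at an unadjusted p under 0.05. Their log2 fold changes were above 0 in 3 and below 0 in 3. All 5 sex chromosome genes were called, with Xist at 0.347 and 0.284 CPM in the wild type and 327 and 573 CPM in the mutants. The Y-linked Ddx3y was at 67.6 and 52.4 CPM in the wild type and at 0 in both mutants. Eif2s3y, Kdm5d and Uty, also Y-linked, were likewise at 0 in both mutants. By these genes the wild-type livers read as male and the mutant livers as female, so that genotype and sex cannot be told apart in any comparison here. Of 17 core clock genes 5 were higher and 3 lower in the mutants (Arntl 1.10 and 1.18 against 12.3 and 23.7 CPM). Genes induced by feeding and insulin, mainly of fatty acid synthesis and glycolysis, summed to 33480 and 26169 CPM in the wild type. In the mutants the sum was 16540 and 10089 CPM. Most of each sum was Scd1 (22279 and 16226 against 11106 and 6751 CPM), which was not called (edgeR adjusted p = 0.150). Of the 16 genes 15 had a negative log2 fold change and 5 were called lower. Over all genes tested edgeR called 1.39% higher and 1.47% lower. Gys2, 1 of the 5, is also counted among the other genes of the pathway below. Fasting response genes outside the pathway summed to 6593 and 6439 CPM against 6009 and 5681 CPM, and of 14 tested Irs2 was called higher and Asns lower, with a median log2 fold change of -0.24. The part of these patterns in the results below was not tested. In whole liver, fewer cells of a type and less RNA per cell cannot be told apart.

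Of the 37 genes, 4 rose in the mutant livers and none fell. Pdk4, which encodes the kinase that inhibits pyruvate dehydrogenase, was 8.36-fold higher, Vnn1, encoding the pantetheinase that releases cysteamine, 5.21-fold, Crat, encoding carnitine acetyltransferase, 5.02-fold and Aldh3a2, encoding the fatty aldehyde dehydrogenase, 3.16-fold. All 37 passed the filter on low counts, and the 4 called were 10.8% of them, where 1.39% of the 12837 genes tested were called higher (edgeR's quasi-likelihood F test, adjusted p under 0.05), 1.47% lower and 2.86% in either direction. The 37 were chosen with earlier results of these data known, so these shares describe the list and do not test it. With no member called lower by edgeR, the count at an unadjusted p under 0.05 was 0 lower and 11 higher, and DESeq2 called 0 lower and 8 higher and limma-voom 0 lower and 1 higher. The share of all genes under that unadjusted p was not computed, so these 11 have no background to be read against. The counts of DESeq2 over all genes are given in the last section. Over all genes the split was 178 higher and 189 lower, 188 higher and 124 lower when libraries were scaled by total count alone, and 117 to 327 higher and 94 to 393 lower when 1 liver was left out. The median log2 fold change of the 37 was 0.23 against 0.01 over all genes tested, with 27 above 0 and 10 below. Both mutant livers lay above both wild-type livers in 13 of the 37 (35.1%, against 25.2% of all genes tested) and below them in 2 (5.41%, against 23.4%), and in 22 the groups overlapped. The values depended on which mutant livers were used. The median was -0.002 without mutant replicate 2 and 0.502 without mutant replicate 1, and the fold changes of Crat and Vnn1 were smaller without replicate 2.

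**Figure D1:**
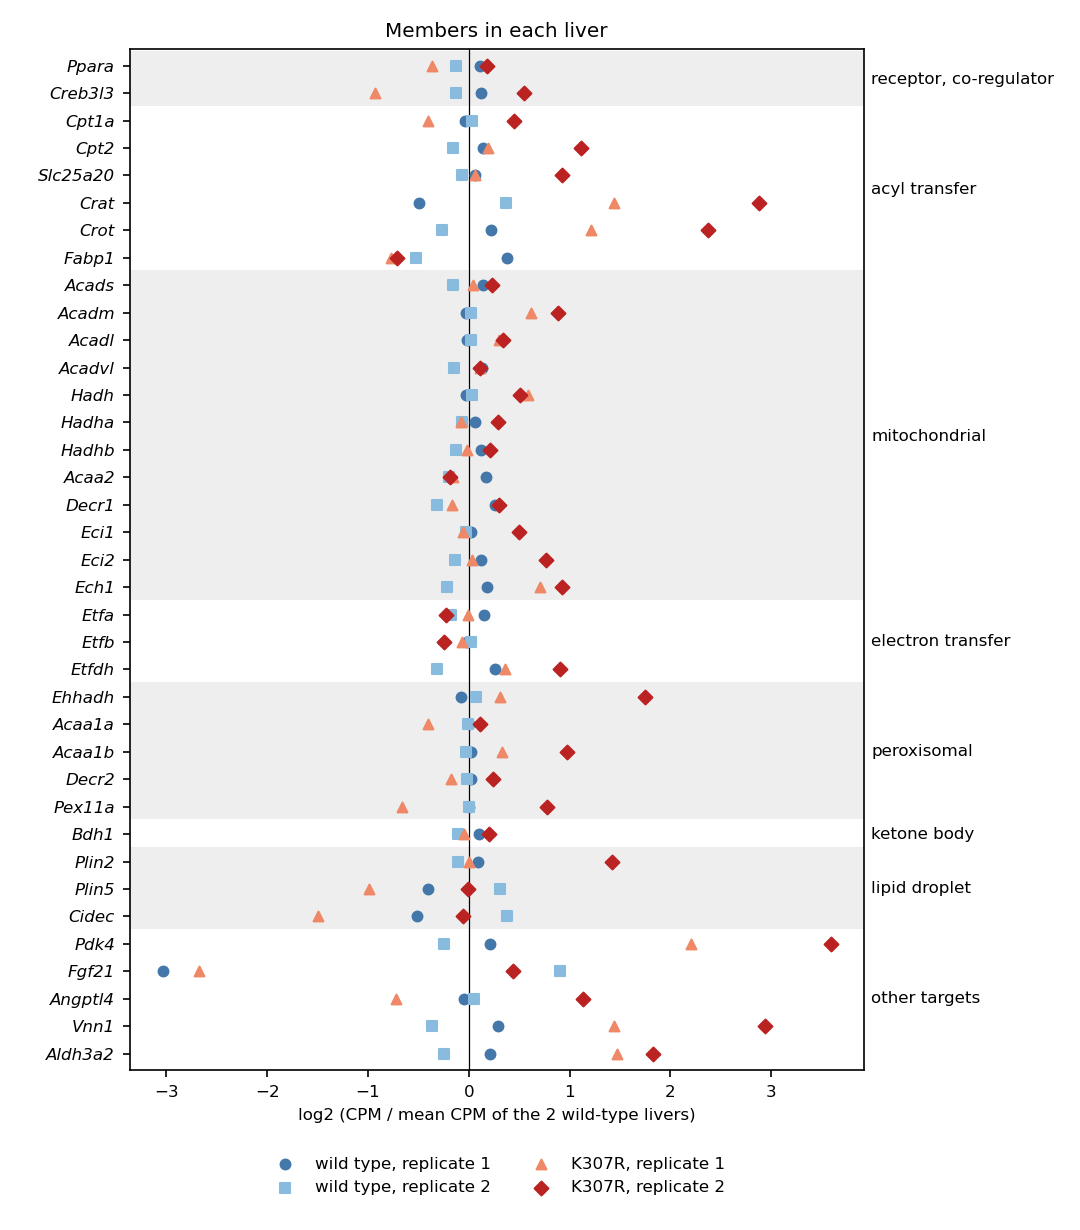
Level of each of the 37 genes in each liver, as log2 of its CPM over the mean CPM of the 2 wild-type livers, grouped by role, with 1 symbol per liver. The diamonds of mutant replicate 2 are the farthest to the right in 28 of the 37 genes, and both mutant symbols lie to the right of both wild-type symbols in 13.

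The receptor gene did not differ by genotype beyond the spread between livers. Ppara stood at 231 and 195 CPM in the wild-type livers and at 165 and 242 CPM in the mutant livers (log2 fold change -0.07, SE 0.26, adjusted p = 0.930), with a 95% interval of the log2 fold change from -0.66 to 0.53. The mutant livers were its lowest and its highest, with the wild type between them. Creb3l3, which encodes a membrane-bound transcription factor of the liver that works with PPARA on Fgf21 and other fasting genes, had 199 and 168 CPM in the wild type and 96.0 and 268 CPM in the mutants (log2 fold change -0.01, SE 0.42, adjusted p = 0.993). It was 2.79-fold higher in mutant replicate 2 than in replicate 1, again with both wild-type livers between them, so that the direction of a genotype difference in either gene depended on which mutant liver was used. Without mutant replicate 1 the log2 fold change was 0.19 for Ppara and 0.55 for Creb3l3. Of the Ppara counts, the shorter of its annotated transcripts (7216 bases) took 83.6% and 78.1% in the wild type, and the mutant shares of 93.0% and 78.9% overlap these.

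Among the acyl carriers and carnitine enzymes, Crat rose and Crot was next to the threshold. Crat (chr2:30400476-30416017, GRCm38.p6, Entrez gene 12908) makes acetylcarnitine from acetyl-CoA, and was at 7.46 and 13.6 CPM in the wild-type livers and at 28.6 and 77.4 CPM in the mutant livers. Both mutant livers were above both wild-type livers, but mutant replicate 2 was 2.70-fold above replicate 1 (log2 fold change 2.33, SE 0.48, adjusted p = 0.0481). Without replicate 2 the log2 fold change was 1.44 with an adjusted p of 0.0869, and with total count scaling the adjusted p was 0.0608. Nor was Crat called with limma-voom, on either FPKM scale or at a mean of at least 1 CPM. The end of Crat overlaps Dolpp1 by 54 bases in the annotation, and whether counting used strand is not stated. Crot, the peroxisomal carnitine octanoyltransferase that hands shortened acyl chains on to mitochondria, had 229 and 163 CPM in the wild type and 452 and 1013 CPM in the mutants. Its mutant livers were also both the higher ones, at a fold change of 3.74, with an adjusted p just above 0.05 (log2 fold change 1.90, SE 0.40, adjusted p = 0.0515), and 0.115 without mutant replicate 2, against 0.00835 without replicate 1.

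The carnitine palmitoyltransferases of the mitochondrial membranes and their translocase differed less. Cpt2, the inner membrane enzyme that remakes acyl-CoA, stood at 87.4 and 70.9 CPM in the wild type and 90.3 and 172 CPM in the mutants (log2 fold change 0.73, SE 0.31, adjusted p = 0.286). The carnitine-acylcarnitine translocase Slc25a20 was at 66.1 and 60.4 CPM against 66.1 and 119.9 CPM (log2 fold change 0.56, SE 0.28, adjusted p = 0.382). In both genes mutant replicate 1 was close to the wild-type livers and replicate 2 alone stood apart. Cpt1a, the outer membrane enzyme at which malonyl-CoA controls the rate of fatty acid entry, was at 251 and 262 CPM in the wild type, with the mutants on both sides of it at 193 and 351 CPM (log2 fold change 0.08, SE 0.30, adjusted p = 0.923).

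Fabp1, the fatty acid binding protein of the hepatocyte cytosol that also delivers ligands to PPARA, was the most abundant of the 37 genes per transcript length, at a mean of 6102 FPKM over the 4 livers, and had the most negative log2 fold change of them. Its level was 4728 and 2522 CPM in the wild-type livers and 2127 and 2209 CPM in the mutant livers. Both mutant livers were below both wild-type livers, by little for wild-type replicate 2, and the difference was not called (log2 fold change -0.74, SE 0.34, adjusted p = 0.324). Without wild-type replicate 2 it was called lower (log2 fold change -1.13, adjusted p = 0.0282). Fabp1 is shown by its promoter because it was the single gene of the set with a match to the relaxed PPARA-type element in the 250 bases before its start site. These bases are given with the match in capitals, read on the gene's strand (chr6:71199629-71199878, plus strand, GRCm38.p6).
Fabp1: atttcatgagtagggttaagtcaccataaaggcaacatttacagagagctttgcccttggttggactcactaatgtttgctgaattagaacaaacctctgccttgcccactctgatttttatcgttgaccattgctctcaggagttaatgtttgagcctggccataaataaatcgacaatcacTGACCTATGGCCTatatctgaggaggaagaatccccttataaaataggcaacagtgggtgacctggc
The element searched was AGGTCA, the core motif of nuclear receptors, repeated in the same direction with 1 free base between the copies, on both strands, and a relaxed form made of 2 copies of AGGNCA, also with 1 free base between them, which includes the strict one. RefSeq's table held promoters for 32 of the 37 genes (not for Crat, Acaa2, Decr1, Angptl4 and Vnn1). The strict element was in 0 of the 32 and in 0.0407% of the 27025 promoters of this length, and the relaxed one in 3.12% (Fabp1) and 0.4%. In Fabp1 the match ran from base 67 to base 55 before the start site on the reverse strand, and a further AGGTCA lay on that strand from base 9 to base 4.

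The single core motif AGGTCA was in 7 of the 32 promoters (21.9%), against 15.8% of all promoters of this length. The 7 genes were Acadm, Acadvl, Cpt1a, Creb3l3, Fabp1, Plin2 and Plin5, none of which was called. Windows around the motif (capitals) are given for 3 of them, chosen as the rate-controlling carnitine enzyme, a mitochondrial dehydrogenase and a lipid droplet coat, at chr19:3323199-3323220, chr11:70015502-70015523 and chr4:86670264-86670285, each on its gene's strand.
Cpt1a: ttccttacTGACCTcctccccg
Acadvl: atcaccctAGGTCAggtagaat
Plin2: aggaccccTGACCTaagtcaga
The motif began 94 bases before the start site in Cpt1a, 87 in Acadvl and 218 in Plin2. The Cpt1a window lies inside the annotated gene, which has an earlier start too. A match describes letters only, since binding was not measured.

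None of the 12 genes of the mitochondrial beta-oxidation spiral was called. Over all genes tested 2.86% were called in either direction, so that this absence does not set the 12 apart. Their log2 fold changes ran from -0.17 to 0.82 with a median of 0.20. Unadjusted p was under 0.05 in 3, all of positive sign, and DESeq2 called 2 of them (Ech1 and Acadm) and limma-voom 0. Ech1, an auxiliary isomerase for unsaturated chains, was at 163 and 124 CPM in the wild-type livers and 234 and 273 CPM in the mutant livers (log2 fold change 0.82, SE 0.24, adjusted p = 0.124). Acadm, the medium-chain acyl-CoA dehydrogenase, was at 152 and 157 CPM against 237 and 285 CPM (log2 fold change 0.76, SE 0.22, adjusted p = 0.124). Hadh, the dehydrogenase of medium and short hydroxyacyl chains, was at 243 and 253 CPM against 373 and 353 CPM (log2 fold change 0.55, SE 0.22, adjusted p = 0.248). In these 3 genes both mutant livers lay above both wild-type livers, and the mutant livers were closer to each other than in Crat and Crot. Eci2, an enoyl-CoA isomerase, was at 103 and 86.2 CPM in the wild type and 97.0 and 161 CPM in the mutants (log2 fold change 0.45, SE 0.27, adjusted p = 0.462), with mutant replicate 1 between the wild-type livers.

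The remaining mitochondrial enzymes were closer to 0, with log2 fold changes from -0.17 for the thiolase Acaa2 to 0.32 for the long-chain dehydrogenase Acadl. The trifunctional protein subunits Hadha (0.12) and Hadhb (0.10), the very long-chain dehydrogenase Acadvl (0.11) and the short-chain dehydrogenase Acads (0.14) lay between these, as did Decr1 (0.09), the reductase for unsaturated chains, and Eci1 (0.25), another enoyl-CoA isomerase. Adjusted p values of these 8 genes were between 0.475 and 0.908. In Acadl, as in Ech1, Acadm and Hadh, both mutant livers lay above both wild-type livers (142 and 146 against 177 and 183 CPM). That made 4 of the 12 mitochondrial genes, where 25.2% of all genes tested had this order. The 95% interval of Hadha reached from -0.43 to 0.67, so that differences of that size could not be told from 0 with 2 livers a genotype. The electron transfer flavoprotein passes electrons from the acyl-CoA dehydrogenases to the respiratory chain through Etfdh. Etfdh was at 171 and 115 CPM in the wild type and 183 and 268 CPM in the mutants (log2 fold change 0.66, SE 0.29, adjusted p = 0.299), while the flavoprotein subunits Etfa (-0.11, adjusted p = 0.860) and Etfb (-0.15, adjusted p = 0.776) had values just below 0. Etfb was 1 of the 2 genes of the set in which both mutant livers were below both wild-type livers, the other being Fabp1. Etfdh overlaps Ppid by 23 bases and Etfb overlaps Cldnd2 by 59 bases in the annotation.

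**Figure D2:**
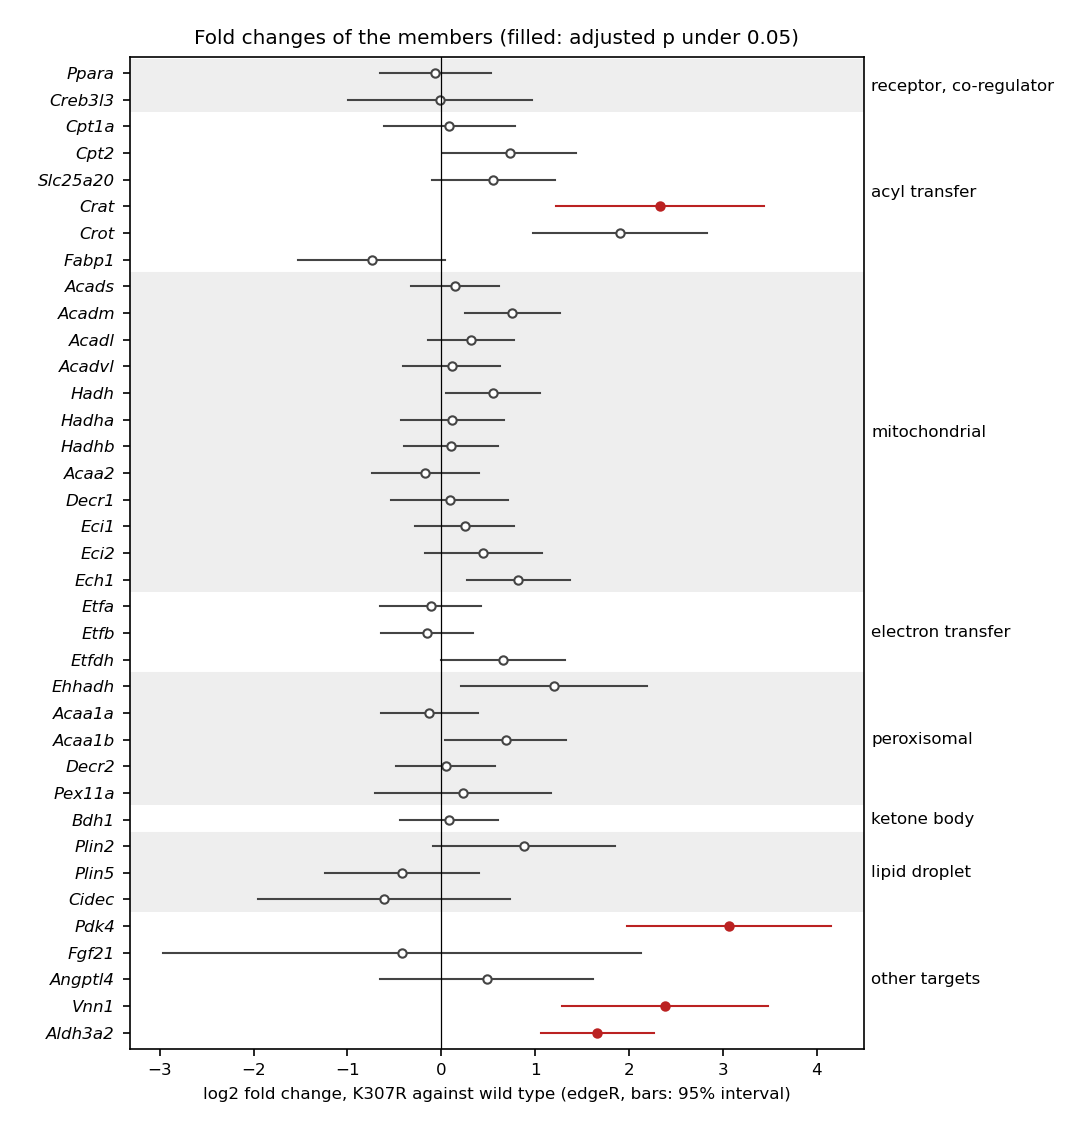
log2 fold change of each of the 37 genes, mutant against wild type, from edgeR, with its 95% interval as a bar and filled symbols for adjusted p under 0.05. The filled symbols are Crat, Pdk4, Vnn1 and Aldh3a2, and the 12 mitochondrial beta-oxidation genes lie between -0.17 and 0.82.

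None of the 5 peroxisomal genes was called by edgeR, which called 2.86% of all genes tested in either direction. At an unadjusted p under 0.05, 2 of the 5 were higher and 0 lower, and DESeq2 called 1 and limma-voom 0. In all 5 mutant replicate 2 was the highest liver. Ehhadh, the peroxisomal bifunctional enzyme, was at 247 and 274 CPM in the wild-type livers and at 324 and 878 CPM in the mutant livers (log2 fold change 1.20, SE 0.43, adjusted p = 0.209). Replicate 2 was 2.71-fold above replicate 1, and Ehhadh was called with DESeq2 and without mutant replicate 1 (adjusted p = 0.0212) and not without replicate 2 (0.31, adjusted p = 0.778). Acaa1b, a peroxisomal thiolase, was at 414 and 399.6 CPM against 509.7 and 799 CPM (log2 fold change 0.69, SE 0.28, adjusted p = 0.269), with both mutant livers higher. Its near-identical copy Acaa1a was at 105 and 104 CPM against 78.5 and 112 CPM (log2 fold change -0.13, SE 0.22, adjusted p = 0.828), with groups that overlap. Because RSEM divides reads that match both copies, the pair is uncertain one by one. Acaa1b also overlaps Dlec1 by 204 bases, and Pex11a overlaps Wdr93 by 184 bases. Pex11a, which drives the elongation and division of peroxisomes, was at 15.4 and 15.5 CPM in the wild type and on both sides of it, at 9.76 and 26.5 CPM, in the mutants (log2 fold change 0.23, SE 0.40, adjusted p = 0.828). Decr2, the peroxisomal reductase for unsaturated chains, was at 196 and 191 CPM against 172 and 229 CPM (log2 fold change 0.05, SE 0.23, adjusted p = 0.949).

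The ketone body gene of the set did not differ by genotype beyond the spread between livers. Bdh1, which reduces acetoacetate to beta-hydroxybutyrate, was at 252 and 218 CPM in the wild-type livers and 227 and 269.6 CPM in the mutant livers (log2 fold change 0.08, SE 0.22, adjusted p = 0.897). Its 95% interval ran from -0.44 to 0.60 on the log2 scale.

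None of the 3 lipid droplet genes was called by edgeR, DESeq2 or limma-voom (0 at an unadjusted p under 0.05), where edgeR called 2.86% of all genes tested. Their values had no common direction. Plin2, the main droplet coat of hepatocytes, was at 234 and 204 CPM in the wild type and 220.0 and 586 CPM in the mutants (log2 fold change 0.88, SE 0.42, adjusted p = 0.341). Mutant replicate 1 was between the wild-type livers and replicate 2 was 2.66-fold above it, so that Plin2 was called without replicate 1 (adjusted p = 0.0457) and stood at 0.01 without replicate 2. Plin5, the perilipin that tethers droplets to mitochondria, was at 24.4 and 40.1 CPM against 16.2 and 32.1 CPM (log2 fold change -0.42, SE 0.36, adjusted p = 0.619). Cidec, a droplet fusion protein, rested on few reads, 18 and 41 expected counts in the wild type against 10 and 28 in the mutants (log2 fold change -0.61, SE 0.58, adjusted p = 0.662), and was the lowest of the 37 genes per length, at a mean of 0.735 FPKM. In Plin5 and Cidec both mutant livers were within or below the wild-type range, mutant replicate 1 being the lowest of the 4 livers.

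Of the 5 remaining PPARA targets 3 rose, with the lowest adjusted p values of the set, where 1.39% of all genes tested were called higher. This list too was chosen with earlier results known, so its share describes it and does not test it. Pdk4 (chr6:5483351-5496278, Entrez gene 27273) was at 2.66 and 1.94 CPM in the wild-type livers and at 10.6 and 27.7 CPM in the mutant livers. Even the lower mutant liver was several times above both wild-type livers, although the mutants themselves were 2.61-fold apart (log2 fold change 3.06, SE 0.47, adjusted p = 0.0189). Pdk4 was not called on either FPKM scale. The log2 fold change was 2.21 without mutant replicate 2 (adjusted p = 0.0266), and the adjusted p was 0.0532 with limma-voom. Aldh3a2 (chr11:61223417-61267528, Entrez gene 11671) oxidises long-chain fatty aldehydes to fatty acids, and was at 142 and 104 CPM in the wild type and 342 and 436 CPM in the mutants. The mutant livers were 1.27-fold apart (log2 fold change 1.66, SE 0.26, adjusted p = 0.0209), and Aldh3a2 was the single gene of the set called under all 14 alternatives, with adjusted p at most 0.0449. Vnn1 (chr10:23894688-23905344, Entrez gene 22361) was at 12.7 and 8.05 CPM against 28.1 and 79.5 CPM (log2 fold change 2.38, SE 0.47, adjusted p = 0.0436). It was not called with limma-voom, on either FPKM scale, at a mean of at least 1 CPM or with the replicate number in the fit. Its groups did not overlap, but without mutant replicate 2 the log2 fold change was 1.45 and the adjusted p 0.0592.

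The promoter of Pdk4 is shown because it had the largest fold change of the set, to be read beside that of Fabp1. Its 250 bases before the start site are given on the gene's strand (chr6:5496279-5496528, minus strand, GRCm38.p6).
Pdk4: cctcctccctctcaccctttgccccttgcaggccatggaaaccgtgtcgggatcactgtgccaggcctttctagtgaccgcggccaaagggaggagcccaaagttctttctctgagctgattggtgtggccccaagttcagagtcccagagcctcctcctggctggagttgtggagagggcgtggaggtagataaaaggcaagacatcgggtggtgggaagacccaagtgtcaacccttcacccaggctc
Neither this window nor that of Aldh3a2, which lies inside the annotated gene and is not printed, holds AGGTCA or the relaxed element on either strand, which says only that these letters are not there.

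Both secreted PPARA targets were spread more between livers than between genotypes. Angptl4, a secreted inhibitor of lipoprotein lipase, was at 59.8 and 64.0 CPM in the wild type, with mutant replicate 1 below and replicate 2 above it, at 37.5 and 136 CPM (log2 fold change 0.48, SE 0.49, adjusted p = 0.686). It was called higher without mutant replicate 1 (1.13, adjusted p = 0.0424) and had the opposite sign without replicate 2 (-0.72, adjusted p = 0.256). Fgf21, the fasting hormone of the liver, had 5 and 94 expected counts in wild-type livers, against 7 and 63 in mutant livers (log2 fold change -0.42, SE 1.10, adjusted p = 0.891). It was low in replicate 1 and higher in replicate 2 of both genotypes, and its log2 fold change was 2.61 when wild-type replicate 2 was left out and -2.67 when mutant replicate 2 was.

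**Figure D3:**
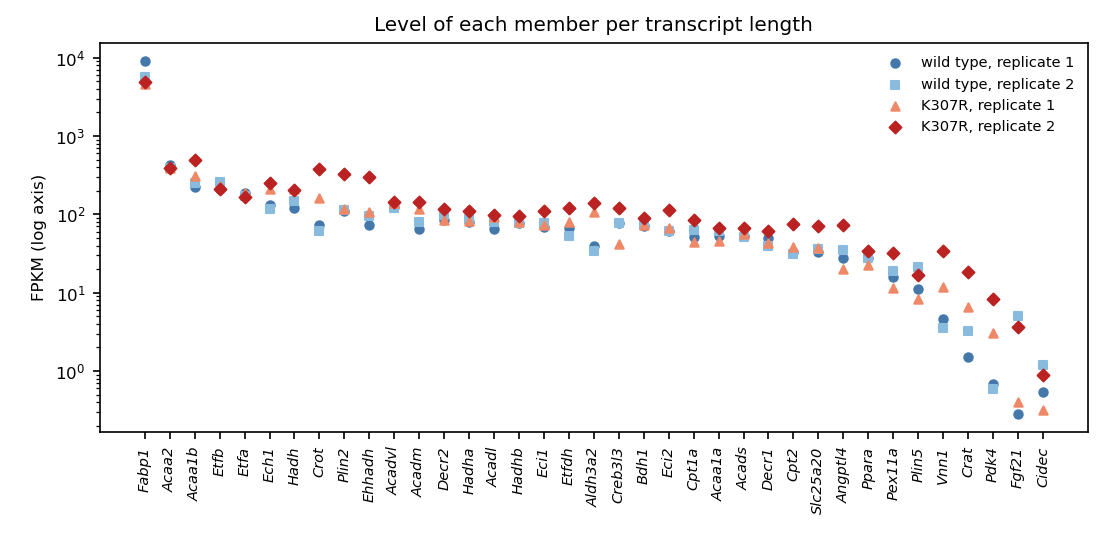
Level of each of the 37 genes per transcript length, in FPKM on a log axis, ordered by mean level, with 1 symbol per liver. Fabp1 is the highest at a mean of 6102 FPKM and Cidec the lowest at 0.735 FPKM, and of the called genes Pdk4 (mean 3.16 FPKM) stands near the low end.

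Per transcript length the 37 genes covered a wide range. After Fabp1 came Acaa2 at a mean of 402 FPKM and Acaa1b at 321 FPKM, while Pdk4 (3.16 FPKM), Fgf21 (2.34 FPKM) and Cidec (0.735 FPKM) were the lowest. Of the 4 genes that rose, Aldh3a2 was at 39.4 and 34.0 FPKM in the wild-type livers and 107 and 141 FPKM in the mutant livers. Crat was far lower, at 1.5 and 3.22 FPKM against 6.53 and 18.2 FPKM.

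The 2 mutant livers differed from each other in most of these genes. Mutant replicate 2 was above replicate 1 in 32 of the 37 (86.5%, against 49.9% of all genes tested), with a median log2 difference of 0.55 against 0.00. It was at least 2-fold above in 11 (29.7%, against 3.15%), and it was the highest of the 4 livers in 28 (75.7%, against 27.1%). The wild-type livers were closer, with replicate 2 above replicate 1 in 12 of the 37 and a median log2 difference of -0.20. Over all genes tested wild-type replicate 2 was above replicate 1 in 50.5%, with a median of 0.007, so that the 37 leaned towards wild-type replicate 1. By role, the electron transfer genes had a median difference of -0.17 between the mutant livers, with 1 of 3 higher in replicate 2. The median was 0.23 in the mitochondrial genes, 0.25 in the ketone body gene, 0.65 in the peroxisomal genes, 0.89 in the carnitine and carrier genes, 1.02 in the receptor and co-regulator, 1.41 in the lipid droplet genes and 1.5 in the 5 other targets. The difference was also seen in the other genes of the pathway, where replicate 2 was above replicate 1 in 78 of 121, with a median of 0.15, and was the highest liver in 59 of 121. In the other PPARA-responsive genes among them it was above replicate 1 in 25 of 35, with a median of 0.34. Beside this, the feeding and insulin list was lower in mutant replicate 2 than in replicate 1 in 12 of 16 genes, and the clock gene Dbp was at 32.4 CPM in replicate 1 and 1.02 CPM in replicate 2. The part of either in the difference was not tested. These are single livers, so that the difference has no replicate and no test.

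**Figure D4:**
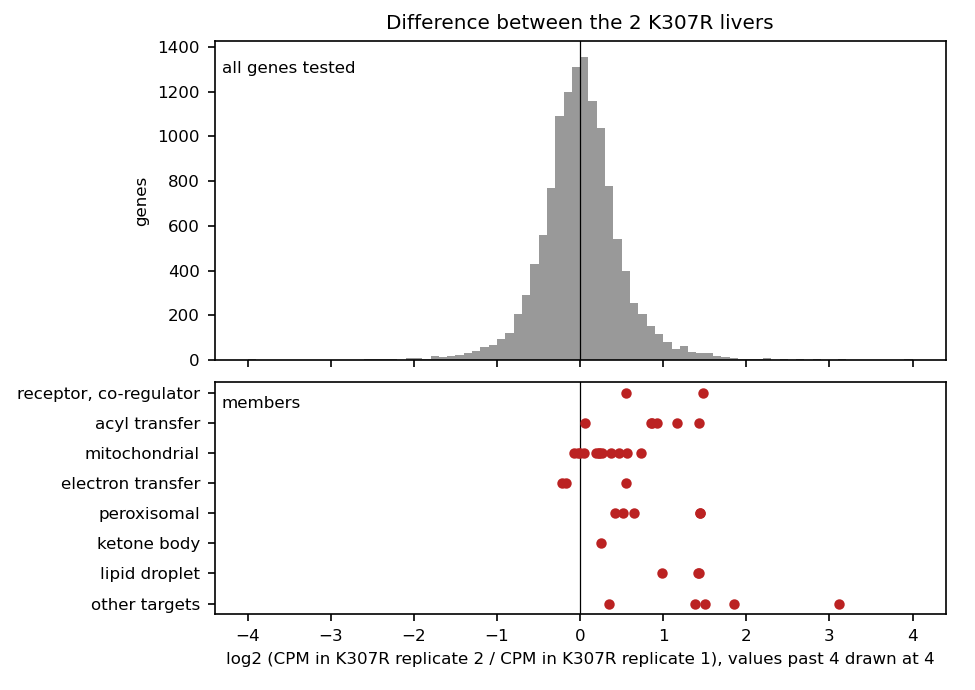
log2 of the CPM in mutant replicate 2 over that in mutant replicate 1, as a histogram of the 12837 genes tested (upper panel) and as 1 point per gene of the set by role (lower panel). The points lie to the right of 0 in 32 of 37 genes, where the histogram is centred on 0.00.

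The other genes of the pathway, 126 in the tables and 121 tested, moved in both directions. Of these 4 rose (3.31%, against 1.39% of all genes tested) and 5 fell (4.13%, against 1.47%), with a median log2 fold change of 0.19 against 0.01. Single calls in the lists below are to be read beside these shares. The genes called higher were 10 without wild-type replicate 1, 11 without wild-type replicate 2, 10 without mutant replicate 1 and 3 without mutant replicate 2, and those called lower 8, 8, 4 and 1. Among the peroxisomal genes Hacl1, the lyase of alpha-oxidation, was at 182 and 162 CPM in the wild type and 546 and 710.4 CPM in the mutants (log2 fold change 1.87, SE 0.25, adjusted p = 0.0117). Nudt7, the peroxisomal hydrolase that degrades coenzyme A, fell from 1203 and 524 CPM to 200.5 and 168 CPM (log2 fold change -2.23, SE 0.40, adjusted p = 0.0322), a call lost without either mutant liver (adjusted p = 0.0671 and 0.105) and a log2 fold change of -1.51 without wild-type replicate 1. Those were the calls in 31 peroxisomal genes.

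Of 18 other mitochondrial genes 1 was called. It was Acacb, which makes the malonyl-CoA that inhibits Cpt1a and which fell, at 295 and 275 CPM in the wild-type livers and 132 and 85.5 CPM in the mutant livers (log2 fold change -1.39, SE 0.26, adjusted p = 0.0391), and 0.128 was its adjusted p without mutant replicate 2. In 9 other ketone body genes edgeR, DESeq2 and limma-voom made no call in either direction, with 1 higher and 2 lower at an unadjusted p under 0.05. Of 12 further lipid droplet and lipolysis genes edgeR called none, with 1 higher and 3 lower at an unadjusted p under 0.05 and 1 in each direction called by DESeq2.

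Among the partners of PPARA, Lpin1, a phosphatidate phosphatase that also acts as its co-activator, was the single call in 21 genes, at 311 and 578 CPM in the wild type and 100.5 and 94.5 CPM in the mutants (log2 fold change -2.19, SE 0.32, adjusted p = 0.0172; adjusted p = 0.0530 without mutant replicate 2). The partner receptor Rxra was at 319 and 319 CPM against 334 and 369 CPM (log2 fold change 0.14, SE 0.22, adjusted p = 0.807). In the 35 other PPARA-responsive genes tested 3 rose and 2 fell. The fatty acid transporter Cd36 was at 5.73 and 11.6 CPM against 71.7 and 61.4 CPM (log2 fold change 2.93, SE 0.33, adjusted p = 0.00612), and its log2 fold change was 3.53 without wild-type replicate 2. The acyl-CoA thioesterases Acot3 (2.60 and 8.43 against 97.9 and 181 CPM, log2 fold change 4.64, adjusted p = 0.00712, with 4.05 and 5.73 without wild-type replicate 1 or 2) and Acot4 (9.84 and 15.8 against 29.2 and 58.1 CPM, 1.76, adjusted p = 0.0483, and 0.115 without mutant replicate 2) were the other genes that rose. Acot1, Acot3 and Acot4 are close copies of each other, and reads may have been divided between them. Liver glycogen synthase Gys2 fell (289 and 245 against 100.4 and 84.9 CPM, log2 fold change -1.53, adjusted p = 0.0168, and 0.0646 without mutant replicate 2), as did the arachidonate-preferring acyl-CoA synthetase Acsl4 (127 and 119 against 46.2 and 55.0 CPM, -1.28, adjusted p = 0.0182, and 0.0610 without mutant replicate 1).

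The genes of that list next to the threshold had their high values in mutant replicate 2. The microsomal omega-hydroxylase Cyp4a14 was at 11.8 and 63.4 CPM in the wild type and 250.4 and 1492 CPM in the mutants (adjusted p = 0.0609). Its relative Cyp4a10 was at 78.5 and 132 CPM against 287 and 1524 CPM (adjusted p = 0.0649), and Acot1 at 4.22 and 3.08 CPM against 12.0 and 103 CPM (adjusted p = 0.0593). In each of the 3 genes both mutant livers were the higher ones and replicate 2 was several times above replicate 1. Reads of the Cyp4a family may be divided between its copies. Acsl1, the main long-chain acyl-CoA synthetase of liver, was at 708 and 669.7 CPM against 791 and 1218 CPM (log2 fold change 0.54, SE 0.28, adjusted p = 0.394), and was not called.

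**Figure D5:**
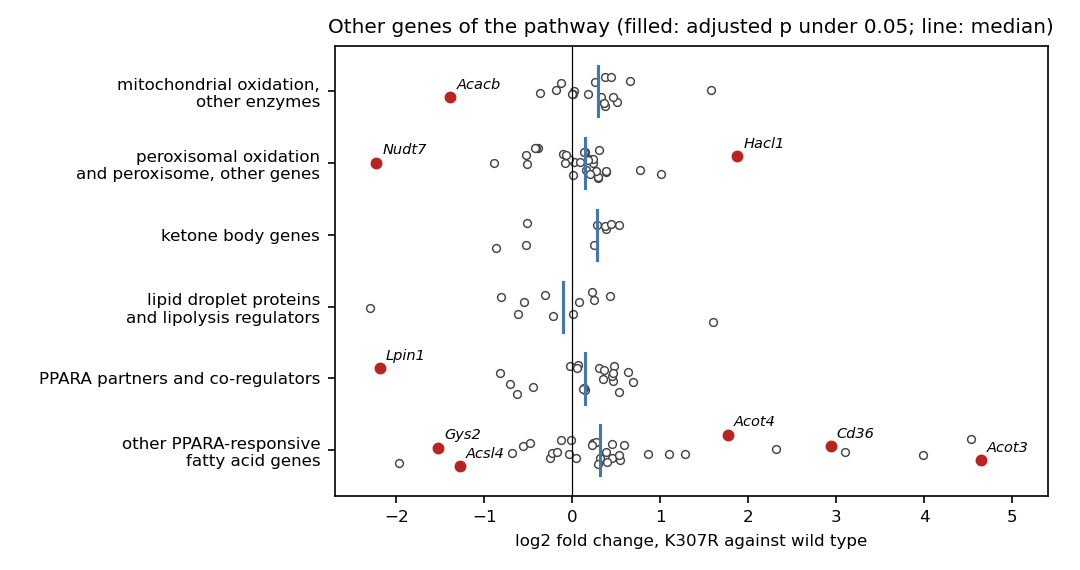
log2 fold change of the 121 other pathway genes tested, mutant against wild type, by list, with filled symbols for adjusted p under 0.05 and a line at each list's median. Filled symbols stand on both sides of 0, from -2.23 for Nudt7 to 4.64 for Acot3.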

How the data were processed

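Total RNA of 4 frozen livers was sequenced, 2 wild type and 2 Ezh2 K307R, grouped by the labels' genotype. Per the submitters' processing notes, the tools were HISAT, Bowtie2 and RSEM and the build mm10 (no versions). Of the counting, strand use and read length are not stated. The authors deposited, for each liver, a table of RefSeq transcripts holding raw expected counts, per the file headers, and FPKM values, which the authors scaled to length of transcript and depth, per the file headers. FPKM served to compare levels between genes and as an alternative test.

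Expected counts were summed per Entrez gene and rounded (17543 genes, 17502 named from RefSeq's GRCm38.p6 table, the mm10 assembly). Genotype was the single term of a quasi-likelihood F test (edgeR 4.0.16, R 4.3.3) with 2 residual degrees of freedom, over the 12837 genes that filterByExpr left, after TMM scaling (factors 0.896 to 1.05; common biological variation 0.217). The threshold was a Benjamini-Hochberg p of 0.05 over all genes tested. CPM are expected counts per 1000000 of the TMM-scaled library. Replicates of a genotype differed by far more than sampling noise (chi-square of 88.5 and 48.3 per gene). The script was tested on simulated data. RefSeq promoters (GRCm38.p6) were searched over the 250 bases before each start site. The members and gene lists were chosen with earlier results of these data known. All 37 members are accounted for, and values per liver are given for those called and for up to 4 others per role with the smallest p, and also for the remaining carrier and peroxisomal genes. In the other lists the called genes, up to 3 others and 3 genes of standing interest (Acsl1, Acacb, Rxra) are named, and some genes of these lists are not reported here one by one. The alternatives changed the scaling (RLE, upper quartile, total count), the tool or the filter: DESeq2 1.42.0, limma-voom (limma 3.58.1), log2(FPKM + 1) and log2(FPKM + 0.1) with limma, no filter and a mean of at least 1 CPM. A replicate block and leaving out each liver were also tried.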

Additional observations from a re-analysis of the deposited data

How the results depend on the processing

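With 2 livers a genotype, intervals are wide and genes of small or moderate change can be missed, and a fit without 1 liver assumes that the lone liver of its genotype varies like the other pair. Of 516 recomputed values of the 37 genes, 462 kept their direction and side of the threshold, 15 lost and 14 gained a call, and 25 in 16 genes changed sign, whose log2 fold changes over all 4 livers were at most 0.484 in size. Of 154 values of the other genes called, with Acsl1 and Rxra, 138 were kept, 16 lost a call and 0 changed sign. The cause of these changes was not tested.

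The number of the 37 genes called higher was 8 with DESeq2, 1 with limma-voom and with both FPKM scales (36 genes in the fit), 2 at a mean of at least 1 CPM, and from 2 to 8 when a liver was left out; the number called lower was from 0 to 1 (Fabp1, without wild-type replicate 2). Their median log2 fold change was from -0.002 without mutant replicate 2 to 0.502 without mutant replicate 1. Other pathway genes called higher were 12 with DESeq2, 14 with no filter, 8 with the replicate block and from 3 to 11 when a liver was left out, and those called lower were 3 with both FPKM scales and from 1 to 8 when a liver was left out. Over all genes, 124 were lower with total count scaling, 368 higher and 370 lower with DESeq2, 94 and 69 with log2(FPKM + 1), 91 and 70 with log2(FPKM + 0.1), 410 and 419 with no filter, and 117 to 327 and 94 to 393 when a liver was left out. The replicate numbers do not pair the livers in the data (correlation of the differences between replicates -0.0027 across 12837 genes, which are not independent); with the replicate block 3 of the 37 genes were called higher, Vnn1 being lost (adjusted p = 0.0774), and 166 genes were higher and 181 lower.

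Signs changed in Creb3l3 with upper-quartile factors (0.017) and in Ppara (0.025) and Creb3l3 (0.085) with total count scaling. When a liver was left out, log2 fold changes crossed 0 as follows, from lowest to highest: from the fit without mutant replicate 2 to that without mutant replicate 1 in Ppara (-0.365 to 0.185), Creb3l3 (-0.932 to 0.548), Bdh1 (-0.048 to 0.201), Acaa1a (-0.406 to 0.108), Cpt1a (-0.407 to 0.451), Hadha (-0.076 to 0.292), Eci1 (-0.058 to 0.502), Decr2 (-0.176 to 0.238), Pex11a (-0.662 to 0.777) and Angptl4 (-0.721 to 1.132); from the fit without mutant replicate 2 to that without wild-type replicate 2 in Fgf21 (-2.670 to 2.609); from the fit without wild-type replicate 2 to that without wild-type replicate 1 in Acaa2 (-0.346 to 0.023), Etfa (-0.270 to 0.061), Acadvl (-0.031 to 0.258), Hadhb (-0.023 to 0.230) and Decr1 (-0.176 to 0.405).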
